A study of Mus musculus with 6 samples.

Results

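Animal cells keep their volume by moving ions and letting water follow. When a cell swells, volume-regulated anion channels, which are built from LRRC8 proteins around the indispensable LRRC8A subunit, release chloride and organic osmolytes, and K-Cl cotransporters release potassium chloride. When a cell shrinks, the Na-K-2Cl cotransporter NKCC1 and Na/H exchange bring salt back in, and the WNK kinases set the balance by activating SPAK and OSR1, which switch NKCC1 on and the K-Cl cotransporters off. Aquaporin 1 is a water channel of the plasma membrane. The genes described here were those of the deposited expression table whose symbol is on a fixed list of 9, namely Lrrc8a, Lrrc8c and Lrrc8d (anion channel subunits), Slc12a2 (NKCC1), Slc12a4 (the K-Cl cotransporter KCC1), Wnk1, Stk39 (SPAK), Oxsr1 (OSR1) and Aqp1. All 9 were found among the 34745 genes of the table, and all 9 passed the filter on low counts among the 13407 genes tested.

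NOR-10 cells, which the labels describe as mouse fibroblasts of skeletal muscle, were profiled by RNA-seq in 1 comparison of a D-gal group (n = 3) with a control group given PBS (n = 3). According to the methods, D-gal was applied at 20 mg/mL for 3 days, and both groups came from the same line in the same medium with serum and antibiotics. The samples analysed here are from 1 cell line and hold no control for osmotic load, and nothing in the labels says whether the replicates were separate cultures, so the p-values measure only the spread between these libraries. Total counts were 16876087 to 20830349 per control library and 13759108 to 15157064 per D-gal library. The 8 fibroblast markers listed (Col1a1, Col1a2, Col3a1, Pdgfra, Dcn, Thy1, Vim and Fn1) were present in every library. By the edgeR test described below, 7 of the 8 were lower under D-gal (adjusted p under 0.05), beside 17.8% of all genes tested. Pdgfra missed the threshold (edgeR adjusted p = 0.0679). The summed level of the 8 markers was 13160 to 13458 CPM (counts scaled to a common library total) in control libraries and 6915 to 7244 CPM in D-gal libraries. Of 7 myogenic markers, Pax7, Myf5 and Myod1 had a count of 0 in every library, Myog and Ckm had 0 to 7, and Acta1 had 27 to 50. Des, with 26 to 67, was lower under D-gal by edgeR, while DESeq2 called 0 of the 7 lower. Of 4 epithelial markers, Epcam had a count of 0 in every library and Krt8 and Krt18 had 0 to 2, while Cdh1 fell from 140 to 142 counts per control library to 26 to 37 per D-gal library (log2 fold change -1.79). In bulk RNA, fewer cells of a type and less RNA per cell cannot be told apart, and the part that these lower markers have in the results below was not tested.

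Aqp1, Stk39, Slc12a4 and Lrrc8c were higher under D-gal, and none of the 9 genes was lower. These 4 passed an adjusted p of 0.05, where adjusted p is the value from the quasi-likelihood test of edgeR after the Benjamini-Hochberg method was applied over all genes tested. DESeq2 gave 5 higher and 0 lower, where 13.8% of all genes were higher by it, and at an unadjusted p under 0.05 edgeR gave 6, all of them higher, where 22.0% of all genes were. Of all 13407 genes tested, 34.8% passed the adjusted p of edgeR, 16.9% higher and 17.8% lower, so the count of 4 in 9 is not by itself a result about these genes. With the fold change criterion of the study's methods added, a size of 1 or more on the log2 scale, none of the 9 genes passed, against 4.21% of all genes, and DESeq2 also gave 0, against 3.73%. Aqp1 stopped just short of that criterion and passed it without control replicate 2, control replicate 3 or D-gal replicate 1. With each library left out in turn its log2 fold change ranged from 0.92 to 1.06. In the same 4 genes every D-gal library lay above every control library, while groups without overlap were found for 49.1% of all genes tested. The median log2 fold change of the 9 genes was 0.24, beside 0.0036 for all genes tested. Without regard to sign the medians were 0.24 and 0.19. The 9 genes were chosen with earlier results of these data known. The absence of lower genes and the median are therefore not by themselves a result about genes of cell volume. Of 43 further genes tested from a wider list, 8 were higher and 10 lower.

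**Figure D1:**
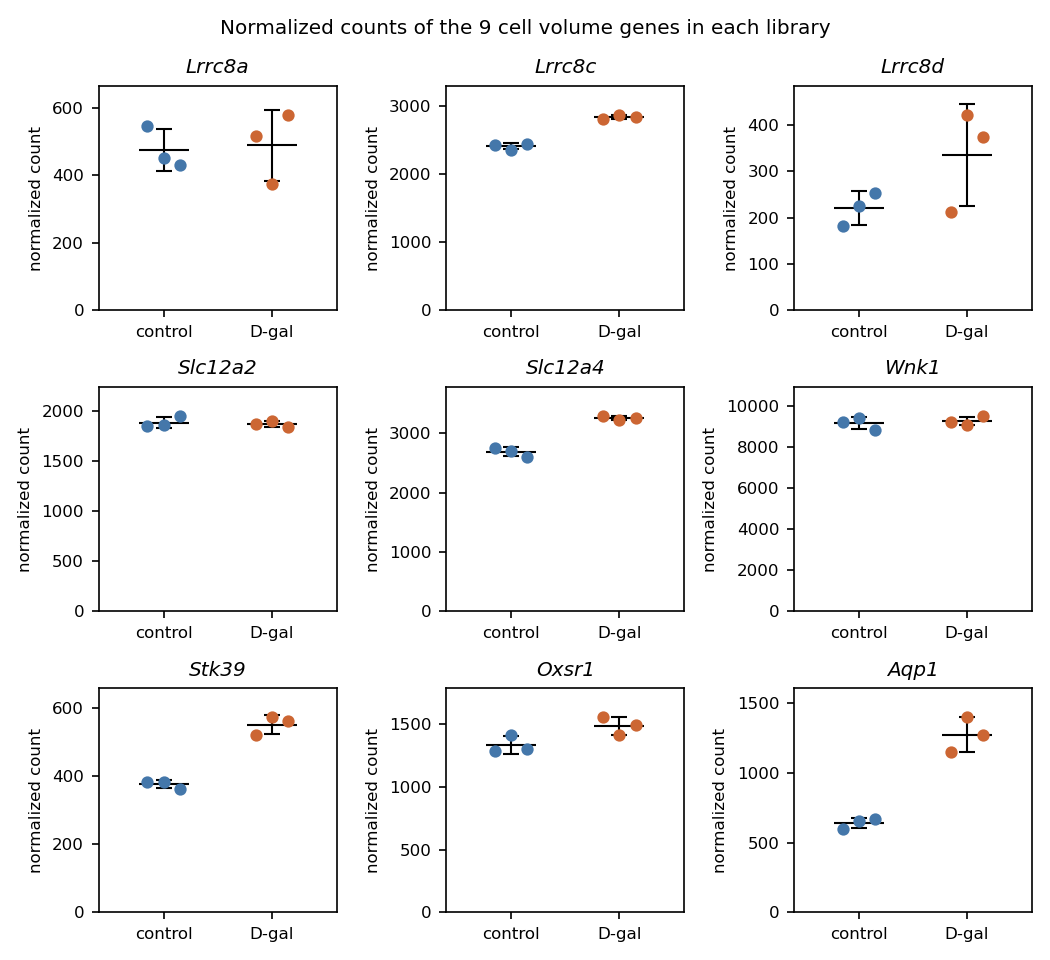
Normalized counts of each of the 9 genes (vertical axes, from 0) in the 3 control and the 3 D-gal libraries. Points are libraries, and the black bars give the mean and SD. The D-gal points lie above all control points for Lrrc8c, Slc12a4, Stk39 and Aqp1, and the groups overlap for the other genes.

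Aqp1 (ENSMUSG00000004655) lies on the plus strand of chromosome 6, from 55336432 to 55348555 on GRCm38, where GENCODE release M21 gives it 1 transcript of 4 exons. No annotated gene overlaps its exons, and 0% of its words of 31 bases occur in transcripts of other genes. The 250 bases before its transcription start in RefSeq (GRCm38.p6, chr6:55336049-55336298, plus strand) are shown because Aqp1 changed most of the 9 genes, and all letters are lower case because they hold no match to the core of the tonicity element, TGGAAA, on either strand.

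Aqp1 upstream: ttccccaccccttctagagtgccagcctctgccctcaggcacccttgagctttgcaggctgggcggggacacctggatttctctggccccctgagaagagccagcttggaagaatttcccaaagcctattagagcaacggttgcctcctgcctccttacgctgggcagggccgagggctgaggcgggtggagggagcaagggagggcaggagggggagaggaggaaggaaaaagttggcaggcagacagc

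A normalized count is a count put on a common scale by the TMM library sizes of edgeR. For Aqp1 it was 597, 658 and 669.5 in control replicates 1 to 3 and 1154, 1401 and 1276 in the D-gal replicates. All D-gal libraries stood far above all control libraries, with the lowest in replicate 1. The means were 642 ± 39.1 (SD, n = 3) and 1277 ± 124 (SD, n = 3). This was a log2 fold change of 0.99 (SE 0.08, 95% interval 0.81 to 1.18, edgeR adjusted p = 8.06e-05), close to a doubling. The change was larger in size for 4.92% of the genes tested. Aqp1 is also known as a water channel of endothelial cells and red blood cells. Among 5 endothelial markers, Cdh5 had 0 or 1 counts per library, Emcn 0 to 2, Pecam1 11 to 28, Kdr 16 to 45 and Tek 11 to 45. Of these, 3 passed the filter, Tek was lower (edgeR adjusted p = 0.0342), Kdr missed the threshold (edgeR adjusted p = 0.0523), and Pecam1 had a log2 fold change of 0.07. DESeq2 called 0 of the 5 endothelial markers lower, so the call of Tek depends on the tool. The globin genes Hba-a1 and Hbb-bs had a count of 0 in every library. The summed endothelial level was 4.46 to 5.34 CPM under control conditions and 3.13 to 3.43 CPM under D-gal, and that of the 5 blood and immune markers was 3.02 to 9.40 and 3.43 to 4.07 CPM. The part of other cell types in the Aqp1 result was not tested. Aqp1 was also the main aquaporin of these cells. Of the 12 aquaporin genes listed, 5 had a count of 0 in every library and only Aqp1 and Aqp5 passed the filter, with 3 to 17 counts per library for Aqp5 (edgeR adjusted p = 0.0827).

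Stk39 (ENSMUSG00000027030) encodes SPAK, the kinase that WNK1 phosphorylates and that in turn phosphorylates NKCC1. It spans chromosome 2 from 68210445 to 68472268 on the minus strand, with 8 annotated transcripts of which 1 is coding. The normalized counts of Stk39 were 384, 382 and 363 in the control replicates and 521, 573 and 562 in the D-gal replicates. The lowest D-gal value was well above the highest control value. The means were 376 ± 11.9 and 552 ± 27.6 (SD, n = 3 each), a log2 fold change of 0.55 (SE 0.07, 95% interval 0.40 to 0.71, edgeR adjusted p = 5.42e-04). Stk39 was the only one of the 8 genes with a RefSeq promoter (9 promoters in all, 2 of them of Lrrc8d) whose window, from 250 bases before to 50 bases after the start, held TGGAAA on either strand. The match begins 227 bases before the RefSeq start, on the strand of the gene. It lies inside an exon of Stk39 in GENCODE, where the gene starts further upstream. It also matches the full tonicity element, the sequence to which the osmotic stress factor NFAT5 is known to bind. Slc12a2 had no entry in the promoter table. Of all 32851 promoters of this length, 21.4% held the core and 4.96% the full element. The 30 bases around it (GRCm38.p6, chr2:68472191-68472220, minus strand) are given with the core in capitals.

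Stk39 core: gctcccagcgcgTGGAAActtccctggcgg

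Oxsr1 (ENSMUSG00000036737, chromosome 9, 119238432 to 119322427, minus strand) encodes OSR1, the close relative of SPAK with the same substrates. Control replicates had 1291, 1417 and 1302 normalized counts, against 1558, 1416 and 1498 in the D-gal replicates. The groups overlapped only through control replicate 2, which was just above D-gal replicate 2. The means were 1336 ± 69.7 and 1491 ± 71.0 (SD, n = 3 each), with a log2 fold change of 0.16 (SE 0.05, 95% interval 0.03 to 0.28) and an adjusted p of 0.0577 in the same edgeR test, so the threshold was missed. Without control replicate 2 the adjusted p was 0.0348 and without D-gal replicate 2 it was 0.0468. Oxsr1 remained the more abundant of both kinases. Per kilobase of exon, Stk39 made up 24.3%, 22.5% and 23.1% of their sum in the control replicates and 26.5%, 30.4% and 28.8% in the D-gal replicates. The D-gal shares all lay above the control shares (exact permutation test, two-sided, p = 0.1, and 3 against 3 cannot give a smaller one).

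Wnk1 (ENSMUSG00000045962, chromosome 6, 119923969 to 120038672, minus strand), the chloride-sensing kinase upstream of both, had the highest counts of the 9 genes, 7899 to 11560 per library. Its normalized counts were 9235, 9433 and 8852 in the control replicates and 9255, 9115 and 9518 in the D-gal replicates. The values interleaved. The log2 fold change was 0.02 (SE 0.03, 95% interval -0.06 to 0.10, edgeR adjusted p = 0.703). The annotation gives Wnk1 26 transcripts, and counts per gene do not tell them apart.

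**Figure D2:**
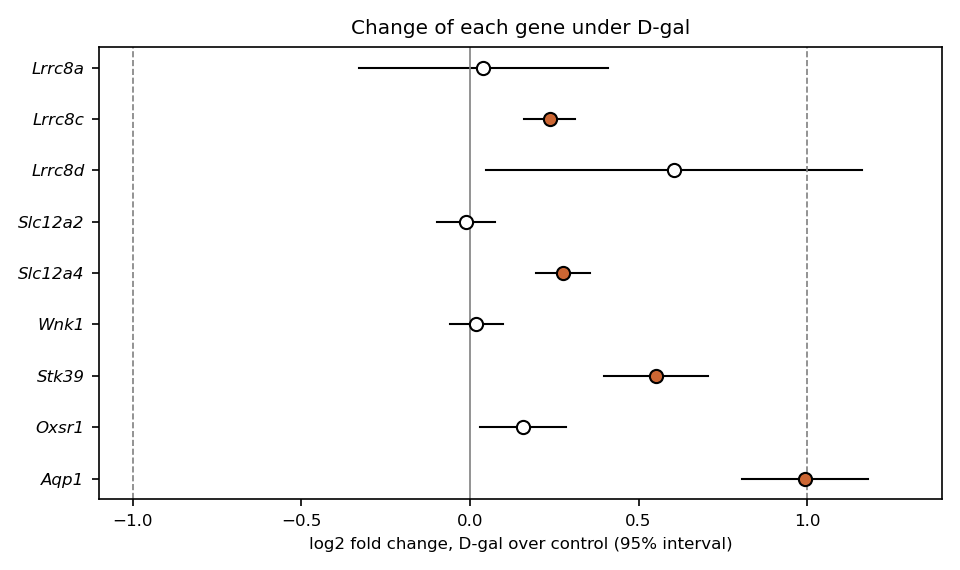
Log2 fold change of each gene, D-gal over control (horizontal axis), with its 95% interval as a line. Filled points passed an adjusted p of 0.05, and dashed lines mark a log2 fold change of 1 in either direction. Aqp1 sits at 0.99 beside the dashed line, Lrrc8d has the widest interval, and Wnk1 and Slc12a2 have narrow intervals around 0.

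Slc12a4 (ENSMUSG00000017765) encodes KCC1, which carries potassium and chloride out of swollen cells. It lies on the minus strand of chromosome 8, from 105943590 to 105966115 in the deposited table (to 105966097 in GENCODE release M21). Its normalized counts were 2755, 2709 and 2607 in the control replicates and 3288, 3227 and 3258 in the D-gal replicates. The spread within each group was small and the groups were well apart. The means were 2690.4 ± 75.3 and 3258 ± 30.7 (SD, n = 3 each), a log2 fold change of 0.28 (SE 0.03, 95% interval 0.20 to 0.36, edgeR adjusted p = 6.35e-04). The antisense gene Gm16156 overlaps its exons, and had 1 count in D-gal replicate 1 and 0 in the other libraries.

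Slc12a2 (ENSMUSG00000024597, chromosome 18, 57878678 to 57946821, plus strand) encodes NKCC1, which brings sodium, potassium and chloride into shrunken cells. Its normalized counts were 1842, 1853 and 1943 in the control replicates and 1865, 1891 and 1836 in the D-gal replicates. The D-gal values lay within or just below the control range. The log2 fold change was -0.01 (SE 0.04, 95% interval -0.10 to 0.08, edgeR adjusted p = 0.844), so the interval leaves room for a change of 0.10 downwards or 0.08 upwards on the log2 scale. The ratio of Slc12a4 to Slc12a2, per kilobase of exon, was 3.82, 3.73 and 3.42 in the control replicates and 4.50, 4.35 and 4.53 in the D-gal replicates. The ratio was higher in all 3 D-gal libraries (exact two-sided permutation test, p = 0.1, the minimum for this design, among 4 ratios that were chosen after the values were seen). Of the others, Stk39 to Oxsr1 restates the share of Stk39 given above, so its separation (p = 0.1 in the exact test) is not a further result. The groups overlapped for Lrrc8c to Lrrc8a (p = 0.5) and Lrrc8d to Lrrc8a (p = 0.4 in the same exact test).

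Lrrc8a (ENSMUSG00000007476, chromosome 2, 30237715 to 30263790, plus strand) encodes the subunit without which the anion channel does not conduct. Its normalized counts were 545, 449.6 and 429 in the control replicates and 515, 373 and 577 in the D-gal replicates. The D-gal replicates held both the lowest and the highest value. The log2 fold change was 0.04 (SE 0.16, edgeR adjusted p = 0.876), with a 95% interval of -0.33 to 0.41 that is wider than those of the cotransporters. The value is uncertain for another reason, since 67.6% of its words of 31 bases also occur in transcripts of other genes. Its exons overlap those of Gm28035 on the same strand. For Gm28035 the deposited table gives 18, 49 and 14 counts in the control and 4, 23 and 23 in the D-gal replicates. The gene 1700084E18Rik, with 1 to 10 counts per library, overlaps the exons of Lrrc8a on the other strand.

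Lrrc8c and Lrrc8d encode subunits that join LRRC8A and set which solutes pass. With Lrrc8b they lie in a row on the plus strand of chromosome 5, with 29313 bases between Lrrc8b and Lrrc8c and 86950 bases between Lrrc8c and Lrrc8d. Lrrc8c (ENSMUSG00000054720, 105519388 to 105613018) had 2424, 2357 and 2439.8 normalized counts in the control replicates and 2804.5, 2859.9 and 2840.1 in the D-gal replicates. The D-gal libraries were all higher and hardly differed from each other. The means were 2407 ± 43.8 and 2835 ± 28.1 (SD, n = 3 each). The log2 fold change was 0.24 (SE 0.03, 95% interval 0.16 to 0.31, edgeR adjusted p = 0.00107).

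Lrrc8d (ENSMUSG00000046079, 105699969 to 105832436) had 182, 226 and 253 normalized counts in the control replicates and 211, 420.4 and 374 in the D-gal replicates. D-gal replicate 1 lay within the control range and the other D-gal libraries far above it. The antisense gene Lrrc8dos, which overlaps its exons, had a count of 0 in every library. The log2 fold change was 0.60 (SE 0.24, 95% interval 0.05 to 1.16), and the adjusted p of 0.0893 in the same edgeR test missed the threshold. Without D-gal replicate 1 the log2 fold change was 0.85 (edgeR adjusted p = 0.00551), and DESeq2 on all libraries gave an adjusted p of 0.0157, so the call depends on this library and on the tool.

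The other members of the LRRC8 family, Lrrc8b and Lrrc8e, were lower under D-gal. Lrrc8b fell from 206 ± 10.2 to 137 ± 20.3 normalized counts (SD, n = 3 each), a log2 fold change of -0.59 (SE 0.13, edgeR adjusted p = 0.0078). Lrrc8e fell from 83.3 ± 12.7 to 37.4 ± 18.9, a log2 fold change of -1.15 (SE 0.33, edgeR adjusted p = 0.0288), from 16 to 111 counts per library. The call of Lrrc8e was lost without control replicate 1, control replicate 2 or D-gal replicate 3 (edgeR adjusted p = 0.0782, 0.0813 and 0.0687). For both genes the groups did not overlap. The mix of transcripts within the family is given per kilobase of exon, and its sum includes Lrrc8a, whose value is uncertain as described above. Lrrc8c made up 62.2%, 63.9% and 65.4% in the control replicates and 69.1%, 71.2% and 65.8% in the D-gal replicates. Lrrc8e made up 4.09% ± 0.60 and 1.68% ± 0.87 (mean ± SD of the 3 replicates of each group). For Lrrc8b, Lrrc8c and Lrrc8e the shares of the groups did not overlap (exact two-sided permutation test, p = 0.1 each, again the minimum). For Lrrc8a and Lrrc8d they did (p = 0.7 and p = 0.3 in the same exact test). The sum of the family was 493 ± 14.7 normalized counts per kilobase without and 539.8 ± 21.1 with D-gal (SD, n = 3 each).

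**Figure D3:**
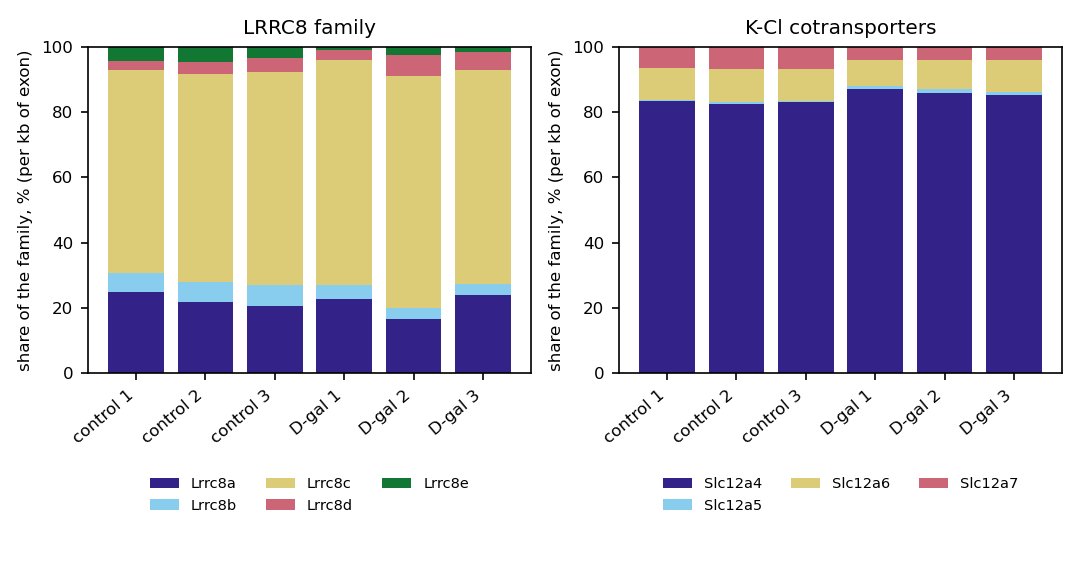
Share of each gene in its family's transcripts, per kilobase of exon, in each library (stacked bars, percent, from 0 to 100), for the LRRC8 family (left) and the K-Cl cotransporters (right). Lrrc8c and Slc12a4 are the largest parts in every library, and the parts of Lrrc8b, Lrrc8e and Slc12a7 are smaller in the D-gal libraries.

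Levels of different genes were compared per kilobase of annotated exon. In the control group Slc12a4 was highest (629 ± 17.6 normalized counts per kilobase, SD, n = 3), followed by Wnk1 (402 ± 12.9), Lrrc8c (315 ± 5.73), Oxsr1 (249.8 ± 13.0), Aqp1 (244 ± 14.9), Slc12a2 (172 ± 5.06), Lrrc8a (110.1 ± 14.3), Stk39 (75.9 ± 2.41) and Lrrc8d (17.5 ± 2.86). The ranges of neighbours were apart except for Oxsr1 and Aqp1. In the D-gal group Aqp1 was second after Slc12a4, at 486 ± 47.1, and the remaining order was the same. There the ranges of Lrrc8a (113 ± 24.2) and Stk39 (111 ± 5.57) overlapped. The order depends on the lengths used. The deposited FPKM values divide the counts of Slc12a2 by 6520 bases and those of Wnk1 by 40754 bases, where their annotated exons cover 10920 and 22825 bases. With the authors' lengths for all 9 genes, the control order was Slc12a4 (559 per kilobase), Slc12a2 (288), Lrrc8c (281), Aqp1 (244), Wnk1 (225), Oxsr1 (207), Lrrc8a (75.0), Stk39 (48.1) and Lrrc8d (10.8). In the D-gal group Aqp1 was second with both sets of lengths.

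**Figure D4:**
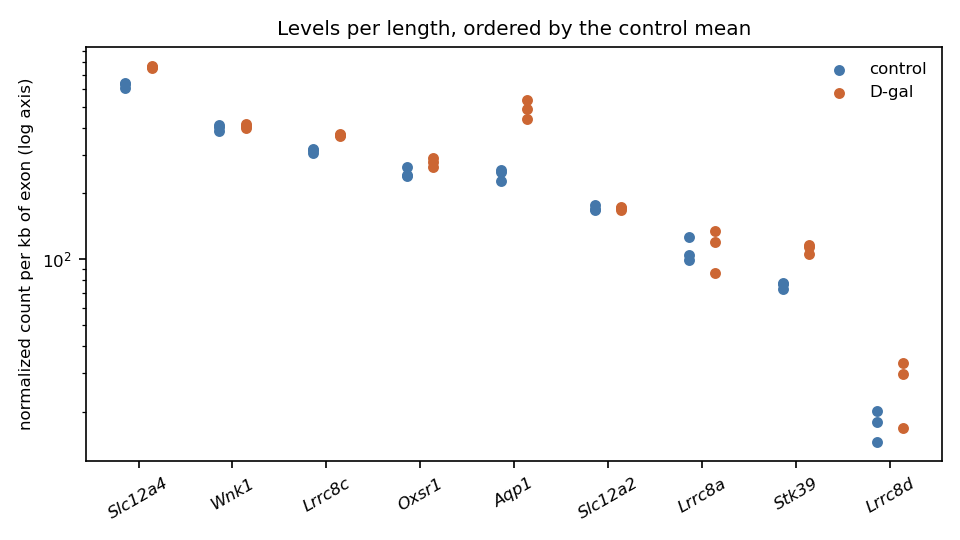
Normalized counts per kilobase of annotated exon (vertical log axis) for the 9 genes, ordered by the control mean. Points are libraries of the control and D-gal groups. Aqp1 moves from the range of Oxsr1 in the control libraries to above Wnk1 in the D-gal libraries, an order that holds with these lengths, while with the authors' lengths the mean of Aqp1 is above that of Wnk1 in both groups.

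The other genes of these families, from a wider list, moved in both directions. Of 67 further genes, 43 were tested, of which 8 rose and 10 fell past the adjusted p of edgeR, beside the 16.9% and 17.8% of all genes. Their median log2 fold change was -0.07. The genes named are those with the smallest p-values of each list and those past both thresholds.

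Among the cation-chloride cotransporters, Slc12a7 (the K-Cl cotransporter KCC4) fell from 639 ± 8.34 to 453 ± 8.27 normalized counts (SD, n = 3 each), a log2 fold change of -0.50 (edgeR adjusted p = 3.34e-04). Slc12a5 (KCC2, best known from neurons) rose by 1.08 on the log2 scale (edgeR adjusted p = 0.0082), but from only 27 to 45 counts per control library. The other 3 of the 5 further cotransporters tested did not pass. Slc12a4 made up 83.3%, 82.5% and 83.0% of K-Cl cotransporter transcripts per kilobase in the control and 87.2%, 85.9% and 85.3% in the D-gal replicates, shares that did not overlap.

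Among kinases of the pathway and their regulators, 2 of 9 further genes were higher and 3 lower, beside 16.9% and 17.8% of all genes tested. Cab39l, which encodes a scaffold protein that activates SPAK and OSR1, rose from 694 ± 52.3 to 951 ± 36.0 normalized counts (log2 fold change 0.45, edgeR adjusted p = 0.00147). The related gene Cab39, named after its values were seen, was more abundant and did not pass. It had 2244 ± 55.5 normalized counts in the control and 2223 ± 71.1 in the D-gal group (log2 fold change -0.01, edgeR adjusted p = 0.821). Wnk3 rose by 0.53 on the log2 scale (edgeR adjusted p = 0.0137). Nedd4l, a ubiquitin ligase of ion channels and transporters, had a log2 fold change of -0.35 (edgeR adjusted p = 0.0074). Wnk4 (-0.50) and Sgk1 (-0.12), a kinase regulated by cell volume, were the other genes that fell, named after their values were seen. Both calls depended on single libraries, with edgeR adjusted p-values up to 0.0615 for Wnk4 (without D-gal replicate 3, and also above 0.05 without control replicate 1 or 2) and up to 0.0706 for Sgk1 (without D-gal replicate 3, and also above 0.05 without control replicate 2 or 3 or D-gal replicate 2). The exons of Cab39l, Wnk3, Wnk4 and Nedd4l overlap genes on the other strand, and whether counting used the strand is not given in the sources used here.

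Of 12 Na/H exchangers and cofactors listed, 7 were tested, with a median log2 fold change of -0.07. None of the 7 passed the threshold in edgeR, nor in DESeq2, and 0 had an unadjusted p under 0.05 in edgeR.

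Among bicarbonate and anion exchangers, 2 of 6 were higher and 1 lower, beside 16.9% and 17.8% of all genes tested. Slc4a7, a sodium bicarbonate cotransporter, rose from 1585 ± 62.2 to 1904 ± 65.6 normalized counts (log2 fold change 0.26, edgeR adjusted p = 0.00297). Slc4a11 rose by 1.20 on the log2 scale (edgeR adjusted p = 0.0082) with 49 to 166 counts per library. Slc4a4, another sodium bicarbonate cotransporter, fell by 1.46 (edgeR adjusted p = 0.0201) with 4 to 23 counts per library, a call that was lost in DESeq2 (adjusted p = 0.0805) and without control replicate 1 or 2 or D-gal replicate 1 or 3 (edgeR adjusted p = 0.0572 to 0.0736). Among the 13 other channels and sensors tested, 3 were higher and 3 lower, beside the same shares of all genes. The mechanosensitive channel gene Piezo1 had a log2 fold change of -0.28 (adjusted p = 5.03e-04), Tmem63b, a channel gene linked to osmotic sensing, 0.31 (adjusted p = 9.46e-04), and Tmem206, which encodes an acid-activated chloride channel, 0.62 (adjusted p = 0.00308), all from the same edgeR test. Exons of Piezo1 and Tmem63b overlap genes on the other strand.

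**Figure D5:**
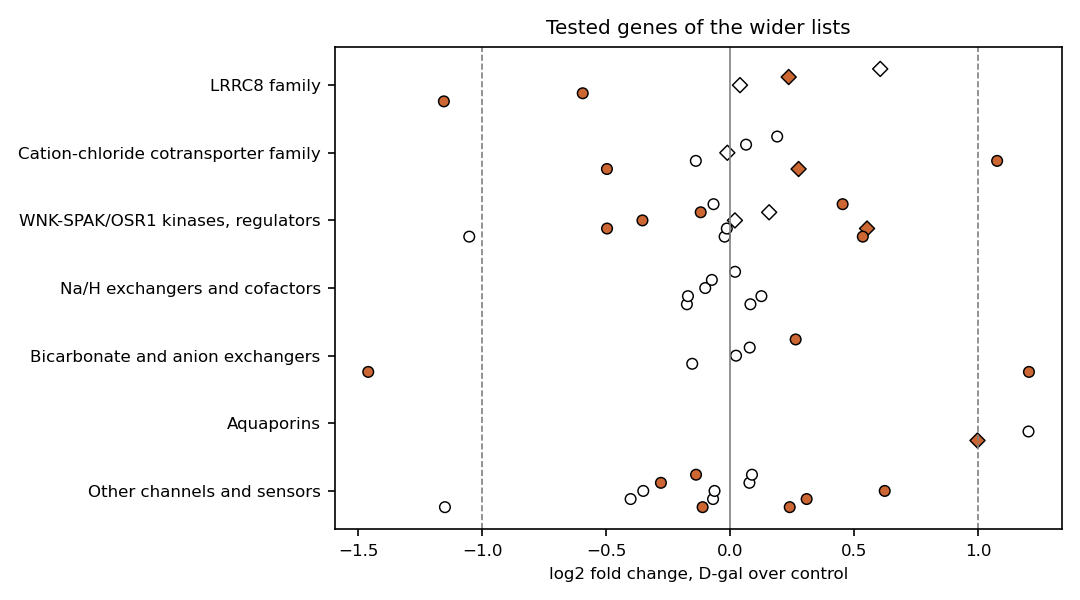
Log2 fold change, D-gal over control (horizontal axis), of every tested gene of the wider lists, 1 list per line. Diamonds are the 9 genes described and circles the others, filled symbols passed an adjusted p of 0.05, dashed lines mark 1 in either direction, and vertical offsets within a line carry no value. Filled symbols lie on both sides of 0 for the LRRC8, cotransporter and kinase lists, and the Na/H exchange list has none.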

How the data were processed

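The table deposited by the authors holds read counts per gene and library without normalization, and FPKM values, which the authors computed from the gene length and the library total. According to the submitters' processing notes reads were aligned with HISAT2 (version 2.0.4), and the counting tool, the annotation and the use of strand are not given in the sources used here. Of the 9 genes, 8 have the same position in GENCODE release M21 (GRCm38), and for 7 the authors' length is the summed length of the distinct exons there. Counts were tested in R 4.3.3 by the quasi-likelihood test of edgeR (version 4.0.16) after filterByExpr and TMM scaling, and p-values were adjusted by Benjamini-Hochberg over all genes tested, 3 libraries against 3, with no covariate. The SE of a log2 fold change was derived from its F statistic. Replicates differed by more than counting error (chi-square over degrees of freedom 6.00 to 9.42), so all libraries were counted. The alternatives were DESeq2 (version 1.42.0), RLE factors, 2 other filters, the replicate number as a block, each library left out, limma (version 3.58.1) on log2(FPKM + 1) and log2(FPKM + 0.1), thinned counts, and a threshold of 0.01. The functions were tested on simulated data. Promoters are from RefSeq (GRCm38.p6). Protein sequences were not analysed here, and 1 gene of the Na/H exchange list is not reported here. The genes named are the 9 listed, up to 3 genes with the smallest p past the threshold in each wider list, list genes past both thresholds, and the 3 genes nearest to the listed gene of smallest p. The members and lists were chosen with earlier results of these data known.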

Additional observations from a re-analysis of the deposited data

How the results depend on the processing

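Aqp1, Stk39, Slc12a4 and Lrrc8c kept their direction and passed the threshold under each of the 14 alternatives other than the threshold of 0.01. Their log2 fold changes ranged from 0.92 to 1.06, 0.45 to 0.59, 0.25 to 0.31 and 0.22 to 0.27. These genes also passed the threshold of 0.01 in the main edgeR fit. Wnk3, Wnk4, Lrrc8e, Sgk1, Slc4a4, Tek and Gm15728 passed 0.05 in that fit and missed 0.01. The number of listed genes past both thresholds, 0, was 1 (Aqp1) with limma on log2(FPKM + 0.1), and ranged from 0 to 1 with each library left out. It was 1 without control replicate 2, control replicate 3 or D-gal replicate 1. The number past both thresholds among all genes, 564, was 120 with limma on log2(FPKM + 1), a scale that understates the change of low genes. Slc12a2 was at 0.0219 with limma on log2(FPKM + 1), 0.0230 on log2(FPKM + 0.1) and 0.00061 in thinned counts, and ranged from -0.0259 to 0.0120 with each library left out. In the same way Lrrc8a ranged from -0.10 to 0.20 and Wnk1 from -0.0069 to 0.0408. These genes passed under none of these. Sgk1 (adjusted p = 0.0786 and 0.0811) and Slc4a4 (0.206 and 0.0804) did not pass with limma on these scales. Oxsr1 passed with limma on both scales (adjusted p = 0.0350 and 0.0342). No pairing by replicate number was seen, since same-numbered libraries' deviations correlated at -0.01, -0.01 and 0.03. Not every library correlated best with its own number. Whether the cultures were handled in pairs cannot be told from these values. With the replicate block 5 listed genes passed instead of 4, the addition being Lrrc8d (adjusted p = 0.0282), and 3982 genes passed the adjusted p alone instead of 4661. Lrrc8a and Lrrc8d had counts of 188 or more in every library, and a CV of 21.4% and 32.8% in the D-gal group. The part of this spread in their missing calls was not tested.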

Other observations

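The 3 genes whose log2 normalized counts, centred on the control mean, lay nearest to those of Aqp1 over the 6 libraries were Gm15728, Mfsd3 and Hif1a, at Euclidean distances of 0.128, 0.137 and 0.139. Hif1a, which encodes the oxygen-regulated subunit of a transcription factor, had a log2 fold change of 0.97, and Mfsd3 1.01. Gm15728 (0.99) passed in edgeR (adjusted p = 0.0121) and not in DESeq2 (adjusted p = 0.0610) or in edgeR without D-gal replicate 2 (adjusted p = 0.0536). In D-gal replicate 2, Lrrc8a was at its lowest (373 normalized counts) and Lrrc8d at its highest (420.4), which was not tested.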
